A study of Mus musculus with 50 samples.

Results

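The clustered histone genes were read from poly-A RNA of hippocampal microglia. They were taken by name from the gene symbols of the count files: every symbol of the H2ac, H2bc, H3c and H4c series that carries a number, with the linker histones H1f1 to H1f5, leaving out names marked as pseudogenes. The rule found 64 of the 53700 genes in the files, made up of 5 H1, 18 H2A, 17 H2B, 12 H3 and 12 H4 genes. In the GRCm39 annotation (GENCODE release vM39) 54 lie on chromosome 13 and 10 on chromosome 3. The annotation lists H2ac14 as a pseudogene, and it was kept because the files name it without that mark.

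Replication-dependent histone genes supply the core histones H2A, H2B, H3 and H4, and the linker histone H1, that package newly made DNA. Their mRNA is unusual in that it normally ends just behind a short RNA hairpin, the histone stem-loop, and carries no poly-A tail. The stem-loop binding protein SLBP holds that hairpin, and the U7 small nuclear ribonucleoprotein directs the cut that follows it, so the mRNA rises in S phase and is degraded when DNA synthesis stops. Some of these genes also give longer transcripts that run past the hairpin to an ordinary poly-A site, and such forms are known from non-dividing, differentiated cells. A library primed on poly-A tails would therefore read mainly the tailed forms and leave most of the stem-loop form unseen. The values below are counts per gene, and which form gave the reads was not tested.

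The 50 libraries each came from 1 male C57BL/6J mouse, with microglia sorted as CD45int CD11b+ cells. CTR mice had standard bedding and nesting, and ELS mice had limited bedding and nesting from postnatal day 2 to day 9. At P9 there were 12 CTR and 13 ELS mice. At P200 mice were killed 3 h after an intraperitoneal injection of PBS (7 CTR and 6 ELS mice) or of LPS, bacterial lipopolysaccharide, at 1 mg/kg (7 CTR and 5 ELS mice). Below, P9 stands for all 25 young mice, PBS for the 13 and LPS for the 12 adult mice. Myelin was removed on Percoll from adult brains and not at P9. The P9 mice were a separate cohort and no injection is given for them. Age cannot be told apart from the Percoll step, the injection or the cohort.

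Totals ran from 5152838 to 42231258 counted reads (median 19960409), and 3 mice had fewer than 16000 detected genes, namely 2 P9-ELS mice (15731 and 12482 genes) and CTR-PBS mouse 1.1 (12854 genes). All 8 microglial markers were tested, and their summed level was 36600 to 62800 CPM (read counts scaled to library size) at P9, 76900 to 84400 after PBS and 67100 to 84100 after LPS. The RNAs known to lack a poly-A tail, 11 of which were found (among them Rmrp, Terc and Rnu7), summed to at most 1.16 CPM in any mouse, and none passed the filter on low counts.

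The stem-loop itself could be read in the genome behind the stop codon of 62 of the 64 members. It is shown here because it marks where the short form ends. The 120 bases after the stop codon were searched for the 16-letter hairpin pattern. It was found in 62 (96.9%) of the clustered histone genes. Of all 21655 protein-coding genes, a set that includes the clustered ones, 97 (0.448%) had it. It began 21 to 58 bases after the stop. The most frequent version stood in 39 members, an H4-type version with GC-richer arms in 7, and other versions stood in the rest. The windows below are from GRCm39, with the hairpin in capitals and 5 bases on either side.
H1f5 (chr13:21964002-21964027, minus strand): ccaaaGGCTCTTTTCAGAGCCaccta
H2bc4 (chr13:23868625-23868650, plus strand): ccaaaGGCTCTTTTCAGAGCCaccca
H1f2 (chr13:23923490-23923515, plus strand): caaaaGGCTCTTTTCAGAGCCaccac
H2bc6 (chr13:23769509-23769534, minus strand): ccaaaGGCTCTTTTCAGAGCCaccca
H2ac20 (chr3:96127729-96127754, minus strand): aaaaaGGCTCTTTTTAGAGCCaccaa
H2ac22 (chr13:21970943-21970968, minus strand): acaaaGGCTCTTTTCAGAGCTaacac
H1f5, whose reads all but vanished in the adult, and H2bc4 and H2bc6, which stayed well measured, carry the identical 16 letters. No match was found behind H2bc21, whose annotated transcript has 2620 exonic bases. None was recorded for H2ac14 either, but it is annotated as a pseudogene and the search began at annotated stop codons.

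What separates the members in the annotation is where the transcript goes next. For 24 of them an annotated transcript runs more than 100 bases past the hairpin, 38 are annotated no farther than 100 bases past it, and 2 had no hairpin to measure from. H2bc4 is annotated 9518 genomic bases past its hairpin, H2bc6 2919, H4c14 1257, H1f4 1153, H1f2 840 and H4c4 770, whereas the H1f5 model stops 30 bases before its hairpin begins. The median exonic length was 1460 bases in the longer class and 462 in the shorter. This grouping was made with the expression values known, so it is given as a description and carries no test.

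Clustered histone genes were lower in sum in adult than in young microglia. Their summed level was 184 to 490 CPM at P9 (median 233, 25 mice), 68.4 to 117 CPM after PBS (median 87.8, 13 mice) and 45.7 to 90.8 CPM after LPS (median 63.3, 12 mice). The young and the PBS mice did not overlap, and the 490 CPM belonged to the P9-ELS mouse with 15731 detected genes. The number of members with a mean of at least 1 CPM was 20 at P9, 8 after PBS and 6 after LPS.

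The members annotated only as far as the stem-loop summed to 26.9 to 273 CPM at P9 (median 56.7) and to 0.965 to 4.85 CPM after PBS (median 2.27). The members annotated past it summed to 127 to 228 CPM (median 166) and to 60.7 to 113 CPM (median 81.4). The 273 CPM belonged to the P9-ELS mouse with 15731 detected genes, and the next young mouse stood at 98.3 CPM. Of the 38 short-annotated members 8 had a mean of at least 1 CPM at P9 and 0 had one after PBS. Of the 24 long-annotated members the counts were 11 and 7. Read mappability moved with the same split: a median of 45.5% of the 100-base windows of the short-annotated members occurred nowhere else in the genome, against 84.1% in the long-annotated ones, and its part in the difference was not tested.

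**Figure D1:**
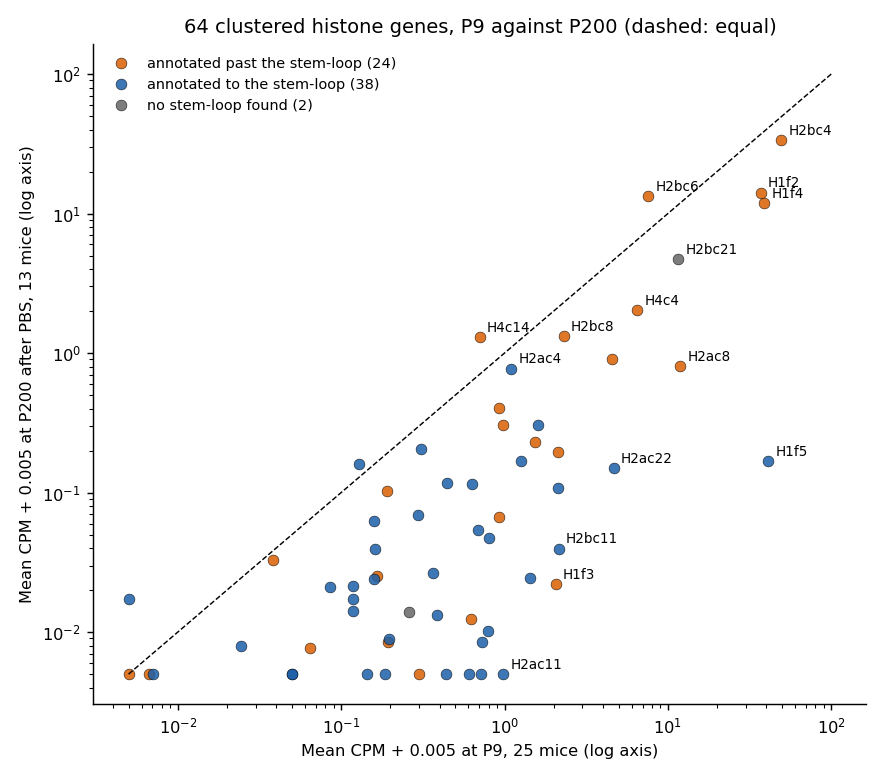
Mean CPM of each of the 64 clustered histone genes at P9 (x axis, 25 mice) and at P200 after PBS (y axis, 13 mice), both on log axes with a small constant added so that 0 can be drawn. Colours give the class of annotated transcript end, and the dashed line marks equal levels. H2bc4 lies nearest the top at 49.3 and 33.5 CPM, while H1f5 falls from 41.0 to 0.163 CPM.

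P200 was compared with P9 to ask which histone transcripts change as microglia mature, with CTR and ELS weighted equally. A member was called when the Benjamini-Hochberg adjusted p of edgeR's quasi-likelihood test was under 0.05 and the log2 fold change was above 1 in size. The filter on low counts (above 1 CPM in more than 2 mice) left 35 of the 64 members. Of these 30 were lower at P200, where 20.0% of the 16696 tested genes were lower, and 0 were higher, where 9.48% of genes were. Since many members passed the filter through their P9 values alone, a fall was nearly built into their passing, and the count is given as a description. Of the 13 tested members above 1 CPM in more than 2 adult mice, 8 were lower. Without the filter 45 of 63 members were lower and 0 higher. The median log2 fold change was -3.86 over the 35 members and -0.05 over all tested genes. In CTR mice 27 members were called and in ELS mice 29, all lower, against 26.4% and 26.2% of genes called in either direction.

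By family, all 5 H1 genes were lower (median log2 fold change -4.35). So were 7 of 8 tested H2A genes (median -4.25), 7 of 10 H2B genes (median -3.56), 7 of 7 H3 genes (median -3.99) and 4 of 5 H4 genes (median -2.31). These counts carry the same limit as the total. By annotated end, 3 of the 18 tested short-annotated members and 9 of the 16 long-annotated ones were above 1 CPM in more than 2 adult mice, so a comparison of the classes by their calls is not made.

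H1f5, a linker histone whose protein is one of the main replication-coupled H1 subtypes, had the largest fall. It was read at 11 to 231 CPM at P9 (median 34.0), at 0 to 1.05 CPM after PBS (median 0) and at 0 to 0.487 CPM after LPS (median 0). Every young mouse was above every adult, and 7 of the 13 PBS mice had no read. The value of 231 CPM belonged to the P9-ELS mouse with 15731 detected genes, and the next young mouse stood at 53 CPM. The log2 fold change was -7.89 ± 0.54 (SE, adjusted p = 5.29e-18). Per kilobase of exon H1f5 had the highest mean among the 3 abundant H1 genes at P9, 55 CPM per kb against 24 for H1f2 and 20 for H1f4. After PBS it had 0.22 against 9.01 and 6.12.

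Among the core histones the steepest falls were in H2ac11, H3c8, H2bc12 and H3c2. H2ac11, an H2A gene, was read at 0.368 to 1.61 CPM in all 25 young mice (median 0.935) and in none of the 13 PBS mice, so it was at least 95.1-fold lower than its P9 level, taking 3 counts over the whole PBS group as the floor. Its log2 fold change was -7.40 ± 0.61 (adjusted p = 1.68e-12). H3c8, an H3 gene, had a P9 median of 0.444 CPM (0 to 2.0) and H2bc12, an H2B gene, one of 0.476 CPM (0 to 2.08). Neither had a read in any PBS or LPS mouse, which makes them at least 73.7-fold and 60.7-fold lower after PBS on the same floor. H3c2 was read at 0 to 6.45 CPM at P9 (median 0.426) and in 1 of 13 PBS mice, with a log2 fold change of -6.26 ± 0.81 (adjusted p = 1.15e-08). These members are low even at P9. In the order named only 23.6%, 62.9%, 29.2% and 43.4% of their windows are unique, so reads from near-identical copies may be missing from them.

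H1f3, a linker histone, was nearly lost in adults although its annotated transcript reaches 4884 bases past the hairpin. It was read at 0 to 3.19 CPM at P9 (median 2.07) and at 0 to 0.109 CPM after PBS (median 0), a log2 fold change of -6.50 ± 0.58 (adjusted p = 5.99e-14). The P9-ELS mouse with 12482 detected genes was the young mouse at 0, and 10 of the 13 PBS mice had no read. H2ac22, an H2A gene whose hairpin ends in a different letter, fell from 1.02 to 13.8 CPM (median 4.32) to 0 to 1.32 CPM (median 0), with a log2 fold change of -5.54 ± 0.59 (adjusted p = 6.45e-11). Its highest PBS value was in CTR-PBS mouse 1.1.

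**Figure D2:**
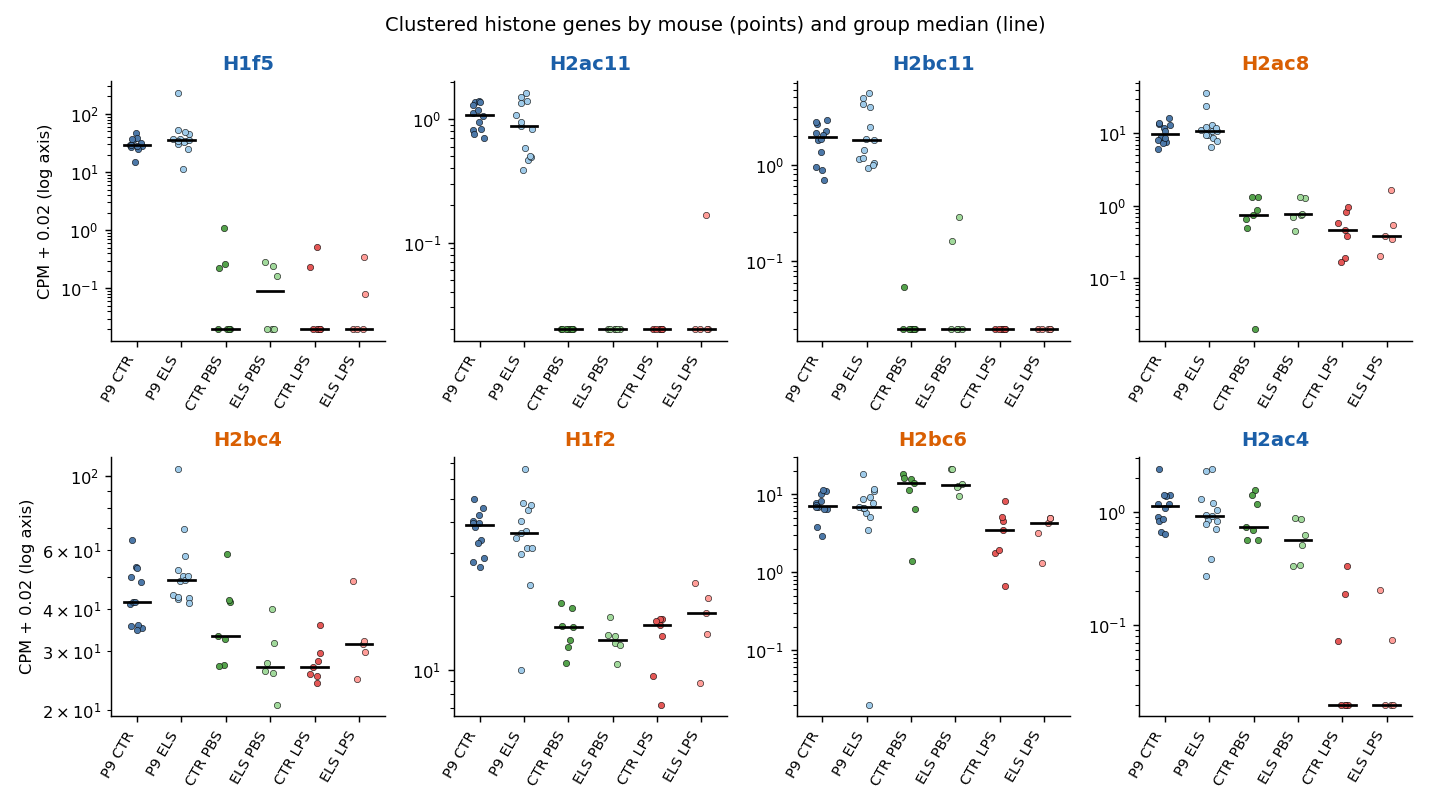
CPM of 8 clustered histone genes in every mouse (points, log axes with a small constant added so that 0 can be drawn), in the 6 groups of age, rearing and injection, with the group median as a line. Blue titles mark members annotated to the stem-loop and orange titles members annotated past it. H1f5 is above 11 CPM in every P9 mouse and at most 1.05 CPM in adults, H2bc4 stays between 20.8 and 58.4 CPM after PBS, and H2bc6 and H2ac4 drop after LPS.

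A second set of members remained well measured in adults. H2bc4, an H2B gene and the most abundant member, was read at 34.7 to 105 CPM at P9 (median 48.3), 20.8 to 58.4 CPM after PBS (median 31.8) and 24.1 to 48.7 CPM after LPS (median 28.8). The groups overlap, and the log2 fold change with age of -0.57 ± 0.12 (adjusted p = 6.86e-05) stayed under the fold threshold. H1f2, a linker histone, had 9.93 to 66.4 CPM at P9 (median 36.7), 10.5 to 18.6 CPM after PBS (median 13.7) and 7.19 to 22.6 CPM after LPS (median 15.6). Apart from the P9-ELS mouse with 15731 detected genes at the low end, the young mice lay above the PBS mice, and the fall of 1.40 on the log2 scale (SE 0.16, adjusted p = 8.86e-11) was called.

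H1f4, the other linker histone with a median above 0 in adults, had 14.9 to 79.0 CPM at P9 (median 40.8) and 3.53 to 32.7 CPM after PBS (median 10.5). It fell by 1.83 on the log2 scale (SE 0.23, adjusted p = 1.11e-09), and the highest PBS value was again CTR-PBS mouse 1.1. H4c4, an H4 gene, was read at 0 to 11 CPM at P9 (median 6.86) and 0.623 to 3.36 CPM after PBS (median 1.9), with a log2 fold change of -1.74 ± 0.26 (adjusted p = 1.79e-07). H4c9, also an H4 gene, had 1.53 to 10.3 CPM at P9 (median 4.05) and 0 to 2.41 CPM after PBS (median 0.677), a log2 fold change of -2.31 ± 0.39 (adjusted p = 1.44e-06).

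H2bc6, an H2B gene, had its higher median in adults. It was read at 0 to 18 CPM at P9 (median 6.91) and 1.37 to 21.3 CPM after PBS (median 13.5), a log2 fold change of 0.82 ± 0.29 (adjusted p = 0.0134) that did not pass the fold threshold. CTR-PBS mouse 1.1 held the low value of 1.37 CPM, and the other 12 PBS mice were at 6.35 CPM or more. The H2bc6 model holds 6150 exonic bases in 7 transcripts, of which 652 are shared with H1f4, H4c4 or a predicted gene, and how reads there were counted was not tested.

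The 4 tested genes of the chromosome 3 cluster had log2 fold changes from -2.63 to 0.88. H2bc21, an H2B gene with no hairpin match, had 0.717 to 17.4 CPM at P9 (median 11.0) and 0 to 10.1 CPM after PBS (median 4.18), and fell by 1.29 on the log2 scale (SE 0.33, adjusted p = 0.000714). H2ac20, its H2A neighbour, went from 0 to 3.27 CPM (median 1.67) to 0 to 1.53 CPM (median 0.169) and fell by 2.63 (SE 0.55, adjusted p = 5.31e-05). H3c13, an H3 gene, went from a median of 0.576 to 0.0282 CPM and fell by 2.48 (SE 0.65, adjusted p = 0.0011), but all 488 of its exonic bases also belong to another annotated gene. H4c14, an H4 gene, had medians of 0.674 CPM at P9 and 1.1 CPM after PBS, with overlapping ranges and a log2 fold change of 0.88 ± 0.55 (adjusted p = 0.171).

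**Figure D3:**
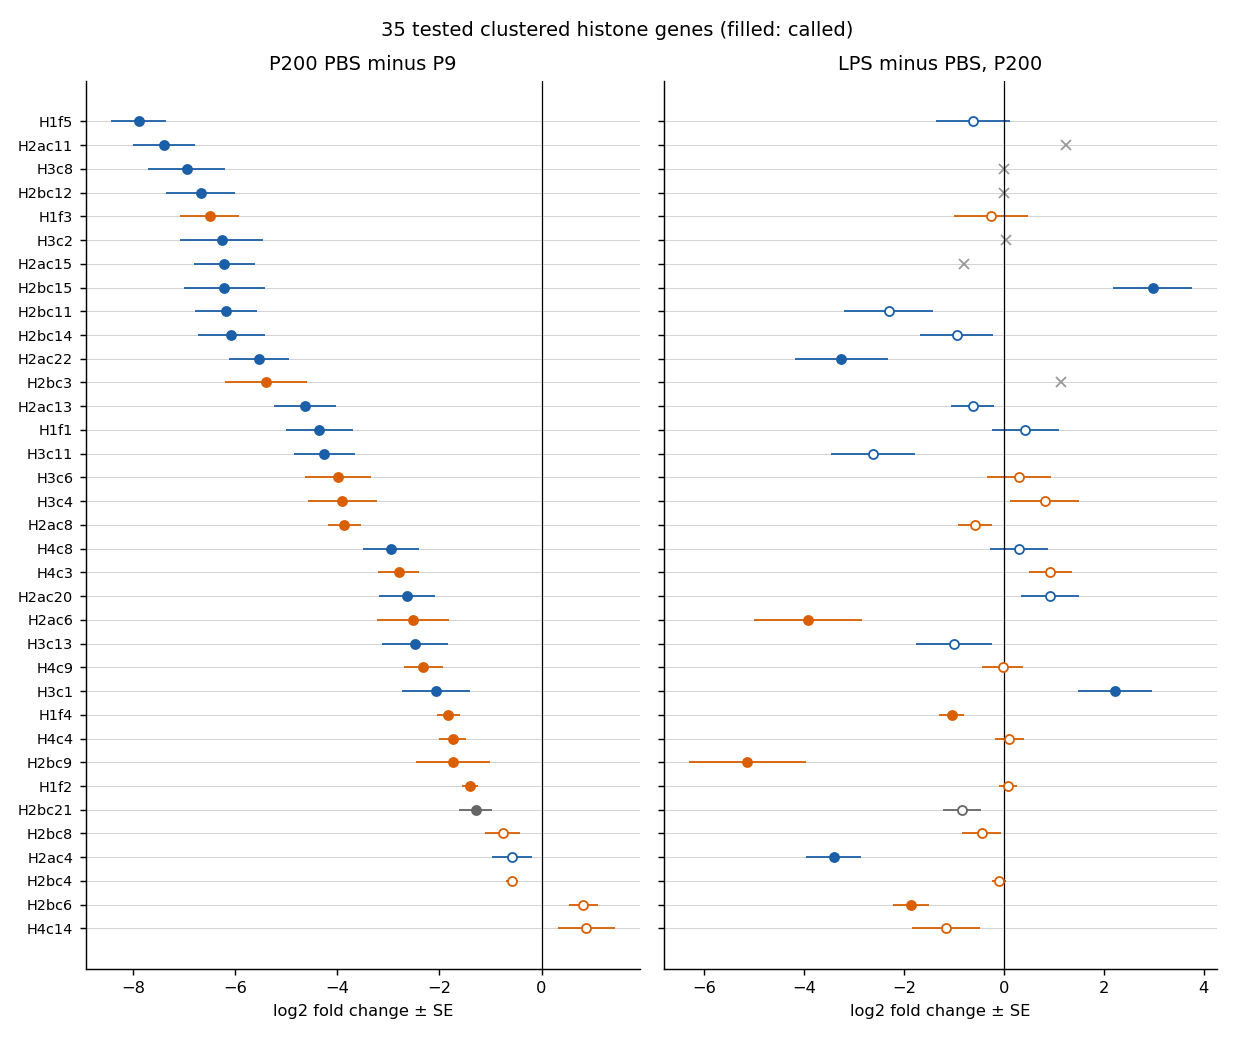
log2 fold change ± SE (edgeR) of the 35 tested clustered histone genes for P200 PBS minus P9 (left) and LPS minus PBS at P200 (right), ordered by the age change and coloured by annotated end, blue to the stem-loop, orange past it and grey with no stem-loop found. Filled points were called, and crosses mark genes with too few adult reads for a usable SE. On the left 30 points are filled and all lie below 0, and on the right 8 are filled.

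H2A and H2B genes of the clusters often sit head to head and share the DNA between their starts, so the members of such a pair can be read against each other. There were 13 pairs with starts facing within 1000 bases, and in 5 of them both genes were tested. The 2 shown here share an octamer, ATTTGCAT, the letters known to be bound by the factor OCT1 in H2B promoters. They were picked for it, and the stretches between H2ac15 and H2bc15 and between H2ac11 and H2bc11 hold none. The 2 windows are printed from GRCm39, plus strand, from the base after the H2A start to the base before the H2B start, with the octamer in capitals.
H2ac8 and H2bc8 (chr13:23755395-23755569): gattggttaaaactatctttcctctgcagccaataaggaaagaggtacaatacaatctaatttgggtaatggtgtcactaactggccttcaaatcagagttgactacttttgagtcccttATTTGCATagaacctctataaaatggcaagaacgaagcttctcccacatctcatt
H2ac20 and H2bc21 (chr3:96128197-96128434): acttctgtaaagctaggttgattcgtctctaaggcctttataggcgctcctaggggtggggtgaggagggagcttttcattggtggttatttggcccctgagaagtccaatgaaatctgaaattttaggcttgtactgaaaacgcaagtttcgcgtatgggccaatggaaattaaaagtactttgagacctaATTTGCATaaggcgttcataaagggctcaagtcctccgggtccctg
In the RefSeq promoter windows of the mouse (GRCm38.p6, 250 bases before to 50 after each start, either strand), 57 members were matched by symbol and 13 (22.8%) held the octamer, against 1.74% of all 32851 windows. The 13 were 6 H2A and 7 H2B genes, and no H1, H3 or H4 window had it.

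Facing genes did not all change in step. For H2ac8 and H2bc8 the 175 bases between the starts are shared, and both transcripts are annotated about equally far past their hairpins (151 and 155 bases). H2ac8 was read at 6.1 to 36.1 CPM at P9 (median 10.7) and 0 to 1.29 CPM after PBS (median 0.733), without overlap, and fell by 3.86 on the log2 scale (SE 0.33, adjusted p = 1.46e-14). H2bc8 was read at 0.404 to 8.25 CPM (median 2.04) and 0 to 2.37 CPM (median 1.28), with a log2 fold change of -0.76 ± 0.34 (adjusted p = 0.0507).

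The difference of log2 CPM, H2B minus H2A, was -2.39 ± 0.91 (SD, n = 25) at P9 and 0.57 ± 0.71 (SD, n = 13) after PBS. The order of the pair turned over on average, though not in every mouse. Single PBS mice ran from -1.1 to 1.4, with CTR-PBS mouse 1.1 at 0. The shift of 2.96 had p = 2e-05 in a two-sided permutation test, the smallest that 100000 permutations can give (adjusted p = 0.0001 over the 5 pairs). This test took mice as independent, although by the labels they came from 4 ELS and 5 CTR nests at P9. After PBS they came from 5 ELS and 5 CTR nests. No version by nest was run and the pairs were added after their values were seen, so these p-values may be too small. For H2ac6 and H2bc4, whose annotated starts overlap, the difference was 5.86 ± 1.17 at P9 and 7.57 ± 1.38 after PBS, a shift of 1.71 (permutation p = 0.00052, adjusted 0.0013).

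For H2ac20 and H2bc21 the difference was 2.86 ± 0.62 at P9 and 3.70 ± 2.67 after PBS, a shift of 0.84 (permutation p = 0.11). CTR-PBS mouse 1.1 was at -4.12 and the other 12 PBS mice at 1.97 to 6.33. Without it, a choice made after seeing the data, the PBS mean was 4.35 ± 1.33 (SD, n = 12) and the shift 1.5 (permutation p = 0.0002, adjusted 0.00033), so this result turns on 1 mouse. For the other 4 pairs the call was the same without it. The H2ac15 and H2bc15 pair shifted by 0.81 (adjusted permutation p = 0.017) and the H2ac11 and H2bc11 pair by -0.64 (adjusted permutation p = 0.023). The genes of these last 2 pairs were at or near 0 after PBS, where a log2 difference reflects the prior count more than the RNA. The same limit holds for H2ac6 and H2bc4, since H2ac6 had few reads after PBS outside CTR-PBS mouse 1.1. H2ac6 also shares exonic bases with H2bc4, and H2ac20 was low after PBS too, as were H2ac8 and H2bc8.

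**Figure D4:**
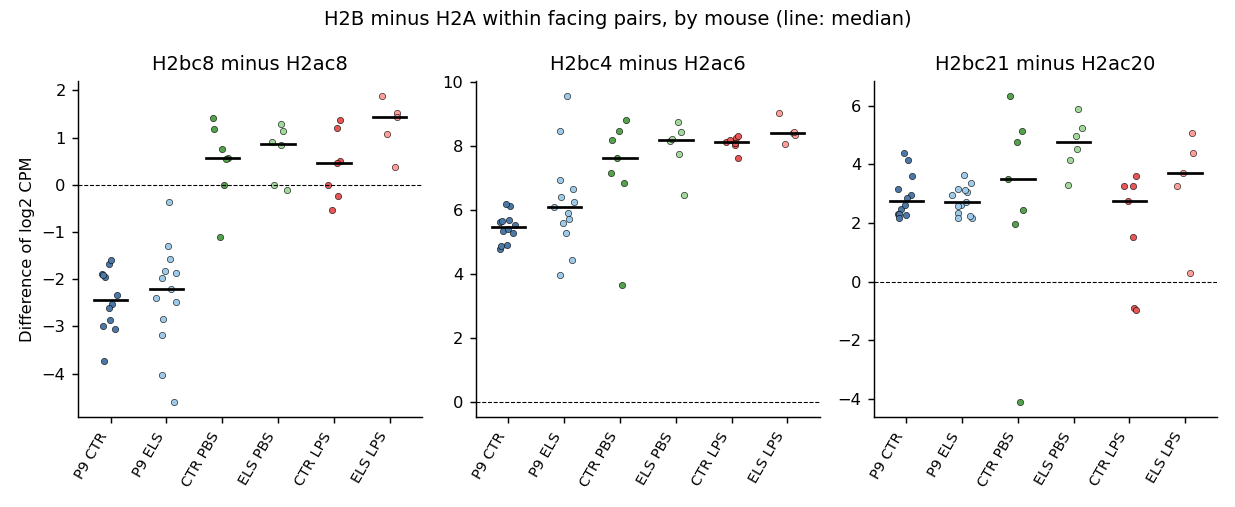
Difference of log2 CPM, H2B minus H2A, in every mouse (points) for 3 facing gene pairs, with the group median as a line and 0 dashed. The H2bc8 and H2ac8 pair lies at -2.39 on average at P9 and at 0.57 after PBS, while in the H2bc21 and H2ac20 pair 1 PBS mouse lies at -4.12 and the other 12 at 1.97 to 6.33.

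Genes around the histone pathway gave a background for the age change. Of 22 S-phase genes all were lower at P200 (median log2 fold change -3.28), and their summed level went from 2160 to 3130 CPM (median 2570) to 314 to 374 CPM (median 332). Top2a, the topoisomerase of dividing cells, had medians of 254 and 2.24 CPM, and Rrm2, the S-phase subunit of ribonucleotide reductase, 248 and 2.06 CPM. The clustered histone sum divided by the S-phase sum had a median of 0.0933 at P9 (0.0689 to 0.159) and 0.261 after PBS (0.197 to 0.372), without overlap. The clustered sum is carried by few members, since the 5 highest at P9 held a median of 72.3% of it at P9 and 66.3% after PBS. Per gene the median log2 fold change was -3.86 in the tested members and -3.28 in the S-phase genes. The first median covers only the 35 of 64 members that passed the filter, many through P9 alone. All 22 S-phase genes were tested, so the 2 medians do not rank the sets.

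Replacement histone genes mostly make ordinary poly-A mRNA, also outside S phase. They were listed together with other polyadenylated histone genes outside the symbol rule. Whether each listed gene is a replacement variant was not checked. Of the 12 listed genes that were tested, 10 were lower at P200 (median log2 fold change -1.84). H2az1 (H2A.Z) had medians of 618 and 172 CPM, H2ax (H2A.X, the variant phosphorylated at DNA breaks) 272 and 18.6 CPM, and Cenpa, the centromeric H3, 104 and 2.88 CPM. H3f3b (H3.3) had medians of 1270 and 950 CPM and did not pass the fold threshold. The CPM of the clustered genes was divided by that of the clustered and the listed genes together, which are not all histone genes. This share had a median of 7.38% at P9 (4.36% to 9.1%) and 5.46% after PBS (4.17% to 7.11%). Of 17 histone chaperones 10 were lower and 0 higher (median -1.17), led by Chaf1b and Asf1b, which deliver new histones to DNA, at log2 fold changes of -5.15 and -3.58.

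The 17 listed genes that regulate histone transcription or make or degrade the mRNA 3′ end had a median log2 fold change of -0.22. Called lower were 2, Lsm11, a U7 ring protein (-1.02 ± 0.38, adjusted p = 0.0201), and Zfp473, a zinc finger protein of the processing complex (-1.18 ± 0.32, adjusted p = 0.00168). Slbp, the stem-loop binding protein, had 99 to 322 CPM at P9 (median 134) and 78.3 to 159 CPM after PBS (median 112), and its log2 fold change of -0.26 was under the fold threshold.

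**Figure D5:**
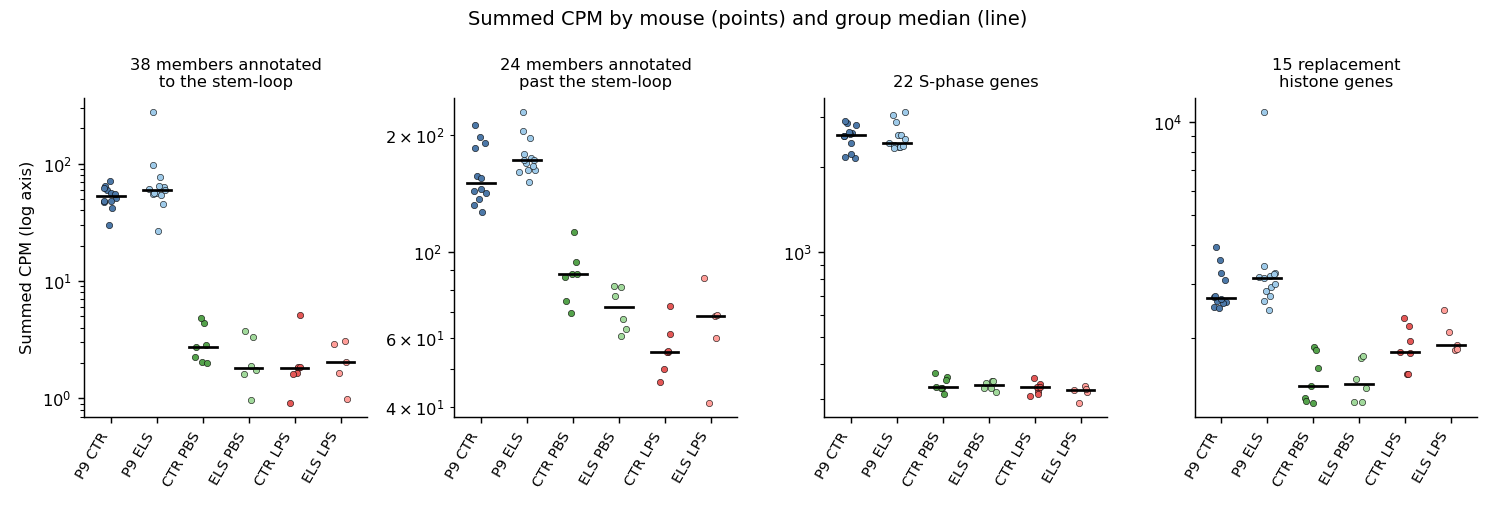
Summed CPM in every mouse (points, log axes) in the 6 groups, with the group median as a line. The panels show clustered histone genes annotated to the stem-loop, those annotated past it, S-phase genes, and listed replacement and polyadenylated histone genes. From P9 to PBS the medians go from 56.7 to 2.27, from 166 to 81.4, from 2570 to 332 and from 2930 to 1400 CPM.

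Markers of other cells moved with age in both directions. All 6 neuronal markers were called lower, with sums of 39.1 to 134 CPM at P9 and 2.49 to 11.9 CPM after PBS. All 4 border macrophage markers were too (464 to 914 and 1.95 to 9.41 CPM), nearly all of it Mrc1, and so were both tested neural progenitor markers of 4, with sums of 0.358 to 22.8 and 0 to 0.214 CPM. The median sum went the other way for astrocyte markers (209 and 351 CPM), carried by Slc1a3 while the other 3 of 4 fell, and for endothelial markers (31.6 and 50.5 CPM, 1 of 3 called, lower). Of the monocyte and neutrophil markers Ccr2 alone was tested and rose (sums of 0.781 and 5.69 CPM), and oligodendrocyte markers had median sums of 22.4 and 19.4 CPM with 3 of 5 lower. At P9 the progenitor markers Eomes and Neurog2 had medians of 0. The part of such cells in the age change of the histone genes was not tested, and in bulk RNA fewer dividing cells and less RNA per cell cannot be told apart.

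LPS was compared with PBS to ask whether an acute immune challenge alters these transcripts. Over CTR and ELS mice together 6 of the 35 tested members fell, where 5.22% of all tested genes did, and 2 rose, where 6.77% did. The median log2 fold change was -0.26 against -0.01 for all genes. In CTR mice alone 7 members were called, all lower (9.62% of genes were called in either direction), and in ELS mice alone 4 were lower and 1 higher (7.86% of genes).

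H2bc6 fell by 1.86 on the log2 scale after LPS (SE 0.37, adjusted p = 7.78e-05). PBS mice had 1.37 to 21.3 CPM (median 13.5) and LPS mice 0.644 to 8.19 CPM (median 3.84). Only CTR-PBS mouse 1.1 and 1 further PBS mouse, at 6.35 CPM, stood below the highest LPS mouse. The mean was 11.9 ± 6.04 CPM (SD) in the 7 CTR mice given PBS and 3.64 ± 2.56 in the 7 given LPS. It was 15.0 ± 4.88 in the 6 ELS mice given PBS and 3.71 ± 1.52 in the 5 given LPS, and the fall was called in CTR (-1.70, adjusted p = 0.00893) and in ELS mice (-2.02, adjusted p = 0.00911).

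H2ac4, an H2A gene, also fell after LPS. It was read at 0.253 to 2.39 CPM at P9 (median 0.918), 0.31 to 1.53 CPM after PBS (median 0.675) and 0 to 0.315 CPM after LPS (median 0). The age change of -0.58 ± 0.39 was not called (adjusted p = 0.21), whereas LPS lowered it by 3.41 on the log2 scale (SE 0.54, adjusted p = 1.86e-06). It had reads in 13 of 13 PBS mice (221 in all) and in 5 of 12 LPS mice (16 in all). It is annotated to 11 bases past its hairpin, 47.6% of its windows are unique and 138 of its 473 exonic bases overlap a predicted gene.

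H1f4 fell by 1.05 on the log2 scale (SE 0.25, adjusted p = 0.00116), from 3.53 to 32.7 CPM (median 10.5) to 1.01 to 9.0 CPM (median 5.74), with overlap. Without CTR-PBS mouse 1.1 the log2 fold change was -0.89 (adjusted p = 0.00361), under the fold threshold, and leaving out any 1 of 5 other adult mice gave -0.92 to -1.0, with the call lost as well. H1f4 shares 528 of its 1930 exonic bases with H2bc6 and a predicted gene, and how reads in the shared bases were counted was not tested. The other abundant members gave no call: the log2 fold change was -0.11 ± 0.14 for H2bc4 (adjusted p = 0.659), 0.08 ± 0.18 for H1f2 (adjusted p = 0.802), 0.11 ± 0.29 for H4c4 (adjusted p = 0.853) and -0.84 ± 0.37 for H2bc21 (adjusted p = 0.0989).

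The other 5 LPS calls rest on few reads, and all 5 were lost with nest as a block. Those of H2bc9, H2ac6, H2ac22 and H2bc15 were lost with voom and nest as a random effect too, and that of H2bc15 with DESeq2. H2bc9 had reads in 5 of 13 PBS mice (81 in all, up to 1.34 CPM) and 1 read in all LPS mice (log2 fold change -5.14 ± 1.17, adjusted p = 0.000699). Its age call, at an adjusted p of 0.0407, sat at the threshold and was lost in 19 of the 50 fits that left out 1 mouse. H2ac6 had 101 reads after PBS, 89 of them in 1 mouse (CTR-PBS mouse 1.1, 4.53 CPM), and 2 after LPS (adjusted p = 0.00524, 0.0964 without 1 ELS-PBS mouse). H2ac22 had 39 reads after PBS, 26 of them in 1 mouse, and 1 after LPS (adjusted p = 0.00736, with the call lost without 1 ELS-PBS mouse).

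H3c1 and H2bc15 were the members higher after LPS. H3c1, an H3 gene, was at 0 to 0.376 CPM after PBS (median 0.0916) and 0 to 1.43 CPM after LPS (median 0.319), a log2 fold change of 2.22 ± 0.74 (adjusted p = 0.0217). Its ranges overlap, and the call was lost without the CTR-LPS mouse at 1.43 CPM. H2bc15 had no read in any PBS mouse and 9 reads in 4 of 12 LPS mice (adjusted p = 0.00446), at least 4.04-fold higher on the floor of 3 counts over the PBS group. Its call was lost without 1 CTR-LPS mouse.

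In the list of 17 genes for histone transcription, mRNA end processing and decay, 4 rose after LPS and 1 fell. The risers were Zfp473 (log2 fold change 1.88 ± 0.37, adjusted p = 7.74e-05), Hinfp, a transcription factor of H4 genes (1.15 ± 0.16, adjusted p = 7.55e-08), Tut7, a terminal uridylyltransferase that tags histone mRNA for decay (1.01 ± 0.09, adjusted p = 4.55e-13), and Dis3, an exosome nuclease (1.00 ± 0.26, adjusted p = 0.00257). Tut7 had 66.1 to 115 CPM after PBS and 135 to 238 CPM after LPS, without overlap. The gene that fell was Mblac1, the nuclease reported to cut histone pre-mRNA (-1.03 ± 0.39, adjusted p = 0.0445).

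Of the 12 tested genes on the list of replacement and polyadenylated histone genes, 1 rose and 1 fell. H2ax rose (1.25 ± 0.25, adjusted p = 8.04e-05), from 0 to 21.9 CPM to 29.9 to 51.9 CPM without overlap. H2aw fell (-1.72 ± 0.19, adjusted p = 2.94e-10), from 19.4 to 36.5 CPM to 2.36 to 12.1 CPM, also without overlap. Of the S-phase genes 1 rose, Tk1, thymidine kinase, and 2 fell, Cdc6 and Cdt1, which license replication origins (1.52, -2.40 and -1.44). The S-phase sum was 314 to 374 CPM after PBS and 292 to 356 CPM after LPS. No histone chaperone of 17 was called by the quasi-likelihood test, though 5 had an adjusted p under 0.05 without the fold threshold (Asf1a, Asf1b, Cabin1, Daxx and Nap1l1).

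ELS was compared with CTR within each age and injection, and none of the 35 members was called. At P9 0 members were called (0.0% of all tested genes, by the quasi-likelihood test). There 0 members had an unadjusted p under 0.05, against 914 of the 16696 tested genes. After PBS 0 members were called, against 0.156% of genes, the smallest adjusted p being 0.105. An unadjusted p under 0.05 was held by 8 of the 35 members and by 1622 of the 16696 genes. After LPS 0 members were called (0.0% of genes) and 3 had an unadjusted p under 0.05, as had 798 of the 16696 genes. DESeq2 called 1 member after PBS, H2ac6 (-4.57, adjusted p = 0.0261), whose CTR-PBS reads came mostly from mouse 1.1, and 0 in the other comparisons.

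H2bc4, the best measured member, was at 44.6 ± 9.28 CPM in P9-CTR (SD, n = 12), 53.7 ± 17 in P9-ELS (n = 13), 37.6 ± 11 and 28.7 ± 6.58 in the 7 CTR and 6 ELS mice given PBS, and 27.9 ± 4.0 and 33.4 ± 9.04 in the 7 CTR and 5 ELS mice given LPS. The log2 differences ELS minus CTR were 0.27 ± 0.14, -0.39 ± 0.19 and 0.26 ± 0.20 (SE) at P9, after PBS and after LPS. H1f4 had 15 ± 8.01 CPM in CTR-PBS and 7.85 ± 3.39 in ELS-PBS, a log2 difference of -0.96 ± 0.34 (SE, adjusted p = 0.251), and the CTR mean includes mouse 1.1 at 32.7 CPM.

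The difference between rearing groups in the age change was called for 0 members (0.0299% of genes). An unadjusted p under 0.05 was held by 8 of the 35 members and by 1712 of the 16696 genes. H2ac6 came first among the members (adjusted p = 0.272). The difference in the LPS response was called for 0 members (0.0% of genes), with 3 at an unadjusted p under 0.05, as were 980 of the 16696 genes. The smallest adjusted p, 0.127, was that of H2ac13, which edgeR's likelihood-ratio test did call (adjusted p = 0.0219).

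The 29 members that did not pass the filter were 10 H2A, 7 H2B, 5 H3 and 7 H4 genes. Their highest value in any mouse was 5.2 CPM, in H2ac21, and their highest count 34. H3c14 had no read in any mouse. A median of 37.9% of their windows were unique, against 84.9% in the tested members, and 5 of the 64 members had no unique window at all, so a low value there does not show low RNA.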

How the data were processed

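Per the labels and the study's methods, RNA of sorted microglia was made into cDNA with a low-input kit that captures poly-A-tailed RNA. The authors trimmed reads with cutadapt 2.10, aligned them to GRCm39 with STAR and deposited raw read counts per gene, made with HTSeq 0.11.0 from uniquely mapped reads. The annotation release and strand setting are not given in the sources used here.

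From the counts, genes above 1 CPM in more than 2 mice were kept (16696 of 53700) and fitted with edgeR 4.0.16 (TMM, 1 mean per group, quasi-likelihood test, Benjamini-Hochberg adjustment over all tested genes). CPM is scaled to the TMM-adjusted library. A simulation recovered 163 of 200 genes changed by 2 on the log2 scale for P200 against P9, with 7 false calls. Facing pairs were tested by permutation of mice, without regard to nest, with scipy 1.17.1. Mice are named by the labels, where the number before the point was taken as the nest, which the labels do not define.

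The members, gene lists and tests were chosen with earlier results of these data known. Members named were the 10 most abundant, the 6 largest called changes each way for age and for LPS, and those tested outside chromosome 13. H2bc8, H2ac13 and H1f1 to H1f5 as a family, with the facing pairs, were added after their values were seen. Of the listed genes Symplk, H3f5, Supt16h and Rn7sk were not matched by symbol and are not analysed here. No within-group pair of libraries agreed within sampling noise.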

Additional observations from a re-analysis of the deposited data

Results flagged for a closer look

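H1f4 in CTR-PBS mouse 1.1 stood apart, at 32.7 CPM against a group median of 12.7 CPM. Its gap to the next mouse was 0.731 of the range of the 7 mice. This was 1 outlying value in 30 sets of 5 to 7 adult mice examined (named members and their sum where the median was at least 1 CPM), and chance alone would mark about 1 in 20. The same mouse had few detected genes (12854), the lowest H2bc6 among PBS mice (1.37 CPM) and the highest H2ac6 (4.53 CPM).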

How the results depend on the processing

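The 30 falls with age ranged from 28 to 31 under the likelihood-ratio test, DESeq2, its size factors, library totals, filterByExpr, voom with nest, the fit of the compared groups and the fit without mice under 16000 detected genes. The counts were 20 of 25 members for sums per nest and 45 of 63 without a filter. In CTR mice sums per nest gave 17. Without the fold threshold 1 member, H2bc6, was higher at P200. The 2 members higher after LPS became 0 (only the groups compared, sums per nest, replicate block) or 1 (DESeq2, voom). The 6 lower became 3 under voom, the replicate block by nest and the groups compared alone, and these were H2bc6, H2ac4 and H1f4 each time. The groups compared alone left 12 members to test (10 within CTR or within ELS) and sums per nest 25, so part of the missing calls were not tested there. Without the mice under 16000 detected genes 6 were lower, H1f4 no longer among them (-0.89). LPS calls in CTR fell from 7 to 3 under the groups compared alone, voom and the replicate block. In ELS the 5 calls became 8 (likelihood-ratio test), 9 (without mice under 16000 detected genes), 3 (voom), 2 (sums per nest) and 1 (groups compared alone, replicate block). For ELS after PBS the likelihood-ratio test and DESeq2 gave 1 each, and for the LPS response by rearing the likelihood-ratio test gave 1. The cause was not tested.

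Leaving out each mouse in turn gave 28 to 30 falls with age and 0 rises, 25 to 28 calls in CTR and 26 to 29 in ELS. For LPS it gave 1 to 2 rises and 4 to 7 falls, 7 to 7 calls in CTR and 3 to 8 in ELS, and 0 to 0 calls in each ELS comparison and in both differences between rearing groups. Over all tested genes the PBS and the LPS mice of an adult nest did not deviate together (r from -0.041 to 0.084 over 10 nests). Each of these nests gave mice to both injections, so the nest block follows the design. The P9 nests were not compared in this way, and voom estimated a nest correlation of 0.078. For the members named in the text no called direction reversed. The shift of the H2bc21 and H2ac20 pair was called without CTR-PBS mouse 1.1, an alternative chosen after seeing the data. Library totals shifted the median LPS change of all genes to -0.18.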
